A study of Homo sapiens with 2 samples.

Results

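The 10 core circadian clock genes CLOCK, BMAL1 (listed as ARNTL in GENCODE 29), NPAS2, PER2, PER3, CRY1, CRY2, BHLHE40, DBP and TEF were examined in HEK293T cells with a stable FKBP5 knockdown. They were chosen by name, not by their values, though with earlier results of these data known. All 10 were matched by symbol to Ensembl identifiers among the 60683 genes of the count table. HEK293T is a human embryonic kidney line that carries the SV40 large T antigen, and the product of FKBP5 is an HSP90-bound immunophilin that restrains steroid receptors. The 2 samples, FKBP5 knockdown sample 2 and FKBP5 knockdown sample 1, form 1 group, in which short hairpin RNAs against FKBP5 were stably expressed. The labels name neither the hairpin that each sample carried, nor separate cultures, nor the hour of harvest. Cells with a scrambled hairpin were not analysed here, so no value below is a change caused by the knockdown.

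The mammalian clock is a feedback loop of transcription. CLOCK, or its relative NPAS2, pairs with BMAL1 and activates genes that carry E-boxes, among them the Period (PER) and Cryptochrome (CRY) genes, whose proteins return to the nucleus and block the activators. BHLHE40 competes for the same E-boxes, DBP and TEF activate genes through D-boxes, and REV-ERB and ROR receptors repress or activate BMAL1 through ROR elements. In cultured cells that have not been synchronised, single cells run out of phase, so a bulk library averages over the cycle.

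All 10 genes have at least 1 promoter window in RefSeq (GRCh38.p14), which runs from 250 bases before a transcript start through the 50 bases from it, 15 windows in all. They were searched on both strands for 4 motifs, the E-box CACGTG, its variant CACGTT, the D-box TTANGTAA and the ROR element by its consensus, and 8 genes held a match. The matches are shown because they are the letters through which these genes are known to regulate each other; they are descriptions and not shown binding sites. The stretches are printed on the strand of the gene with the match in capitals, where a match on the other strand reads as its reverse complement.
BHLHE40 E-box, chr3:4979187-4979216, plus strand: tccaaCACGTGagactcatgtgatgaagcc
TEF E-box, distal start, chr22:41367248-41367277, plus strand: gcgcgacagctcCACGTGctgcagctggcg
TEF E-box, proximal start, chr22:41381737-41381766, plus strand: cacctggccccgCACGTGtctatcttatcc
PER2 E-box variant, chr2:238288790-238288819, minus strand: ggcgcgcgcggtCACGTTttccactatgtg
CRY1 E-box variant, chr12:107093621-107093650, minus strand: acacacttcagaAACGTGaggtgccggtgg
CRY2 E-box variant, chr11:45847275-45847304, plus strand: acacatggtaggAACGTGagggggcgggcc
CLOCK E-box variant, chr4:55546102-55546131, minus strand: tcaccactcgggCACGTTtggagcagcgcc
PER2 D-box, chr2:238288595-238288624, minus strand: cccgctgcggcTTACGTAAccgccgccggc
BMAL1 ROR element, chr11:13277806-13277835, plus strand: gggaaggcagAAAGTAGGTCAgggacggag
CLOCK ROR element, chr4:55546130-55546159, minus strand: ctaggccttgTGACCCACTTTattcctgtc
The D-box of PER3 is shown in the whole 250 bases before its start, chr1:7784041-7784290, plus strand.
PER3: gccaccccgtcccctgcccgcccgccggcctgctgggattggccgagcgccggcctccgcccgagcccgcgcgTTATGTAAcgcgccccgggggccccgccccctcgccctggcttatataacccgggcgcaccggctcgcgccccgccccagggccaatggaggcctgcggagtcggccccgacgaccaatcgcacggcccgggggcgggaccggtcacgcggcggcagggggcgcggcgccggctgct

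The E-box CACGTG lay in 3 of the 15 windows of the clock genes and in 7.26% of the 35116 windows of the RefSeq table. Its variant CACGTT lay in 4 windows, against 5.34% of all windows. D-box letters were found in 2 windows, against 2.18% of all, and ROR element letters in 2, against 0.316%. The motifs were chosen as known letters of clock genes, and both TEF windows hold an E-box. An excess over all windows was therefore not tested. The PER3 D-box starts 177 bases before the transcript start, that of PER2 starts 3 bases before it, and the ROR element of BMAL1 starts 26 bases after it. In BHLHE40 the E-box starts 245 bases before the start, and in TEF it starts 195 and 193 bases before the distal and the proximal start. In the windows of BHLHE40 and CRY1 all 250 bases before the start lie in exons of the gene itself (GENCODE 29), their matches included. In the matched window of CRY2, 126 of these 250 bases lie in its exons. For TEF these were 122 (distal) and 13 (proximal), and for BMAL1 29. The windows of NPAS2 and DBP held none of these letters.

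Sequencing gave 21284648 counts in sample 2 and 9997706 in sample 1, of which the 10 clock genes took 4803 and 2341. Levels are the deposited CPM, which scale counts to the library and not to gene length, with 95% exact Poisson intervals that cover counting error only. The floor of 3 counts corresponded to 0.137 and 0.289 CPM in samples 2 and 1. FKBP5 itself had 77 counts (3.52 CPM) in sample 2 and 41 counts (3.95 CPM) in sample 1. All 8 markers of HEK293 cells had a mean of at least 1 CPM, with NEFL and VIM highest. Their summed level was 818 CPM in sample 2 and 848 in sample 1. A mean of at least 1 CPM was also reached by 3 of 6 epithelial, 1 of 5 blood cell and 3 of 6 fibroblast markers. The summed level of the 6 epithelial markers was 17.6 CPM in sample 2 and 18.0 in sample 1, with KRT7 at 0 in both, and EPCAM and ESRP1 were highest. That of 5 blood cell markers was 18.2 and 20.0 CPM, mostly from CORO1A and then CD14, and that of the 6 fibroblast markers 73.1 and 62.5 CPM, mostly from COL1A1 and then COL3A1. By the test between the libraries described below, COL1A1 was higher in sample 2, and its part in the results on the clock genes was not tested. In such bulk RNA, fewer cells that express a gene and less RNA per cell cannot be told apart.

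The activators CLOCK, BMAL1 and NPAS2 were all present, with mean levels below the median of 23.5 CPM over all genes tested. CLOCK, the bHLH-PAS subunit after which the complex is named, is encoded on the minus strand of chromosome 4, from 55427903 to 55547138 (positions here are GRCh38, after GENCODE 29). It had 429 counts in sample 2 and 203 in sample 1, which were 19.6 CPM (95% interval 17.8 to 21.6) and 19.6 CPM (17.0 to 22.4). The levels of CLOCK in both samples were nearly equal. BMAL1, a partner of both CLOCK and NPAS2, is encoded on the plus strand of chromosome 11, from 13276652 to 13387266. It had 199 counts in sample 2 and 110 in sample 1, which were 9.11 CPM (7.88 to 10.5) and 10.6 CPM (8.71 to 12.8). NPAS2, which can take the place of CLOCK, is encoded on the plus strand of chromosome 2, from 100820152 to 100996829. Its 293 counts in sample 2 and 113 in sample 1 were 13.4 CPM (11.9 to 15.03) and 10.9 CPM (8.98 to 13.1). For BMAL1 sample 2 was the lower and for NPAS2 the higher, and in each the intervals overlapped.

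Among the repressors the Cryptochrome genes lay above the Period genes PER2 and PER3. CRY1, a strong repressor of CLOCK and BMAL1, is encoded on the minus strand of chromosome 12, from 106991364 to 107093829. It had 813 counts in sample 2 and 467 in sample 1, which were 37.2 CPM (34.7 to 39.8) and 45.0 CPM (41.0 to 49.3). These intervals do not overlap, with sample 2 the lower. CRY2, its paralog, is encoded on the plus strand of chromosome 11, from 45847118 to 45883248, and had 294 counts (13.5 CPM, 11.96 to 15.1) in sample 2 and 155 counts (14.9 CPM, 12.7 to 17.5) in sample 1. The CRY2 intervals overlapped.

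PER2 and PER3 had the lowest levels of the 10. PER2, a scaffold on which CRY proteins and casein kinases assemble, is encoded on the minus strand of chromosome 2, from 238244038 to 238290102. It had 113 counts in sample 2 and 53 in sample 1, which were 5.17 CPM (4.26 to 6.22) and 5.11 CPM (3.83 to 6.68). PER3, the Period gene least needed for the rhythm in mice, is encoded on the plus strand of chromosome 1, from 7784320 to 7845177. It had 68 counts in sample 2 and 29 in sample 1, which were 3.11 CPM (2.42 to 3.94) and 2.80 CPM (1.87 to 4.01). Both genes had overlapping intervals in the 2 samples, and PER3 was the least precisely measured.

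BHLHE40 was the most abundant of the 10 in CPM. This repressor, also known as DEC1, is encoded on the plus strand of chromosome 3, from 4979116 to 4985323. It had 1805 counts in sample 2 and 820 in sample 1, which were 82.6 CPM (78.8 to 86.5) and 79.0 CPM (73.7 to 84.6). The samples overlapped in BHLHE40.

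Of the D-box activators, DBP exceeded TEF. DBP is encoded on the minus strand of chromosome 19, from 48630030 to 48637438, and had 626 counts (28.6 CPM, 26.4 to 31.0) in sample 2 and 319 counts (30.7 CPM, 27.5 to 34.3) in sample 1. TEF is encoded on the plus strand of chromosome 22, from 41367333 to 41399326, and had 163 counts (7.46 CPM, 6.36 to 8.70) in sample 2 and 72 counts (6.94 CPM, 5.43 to 8.74) in sample 1. In both genes the intervals of the samples overlapped. The strand setting of the authors' counting is not given, and 10.1% of the exonic bases of DBP lie in exons of SPHK2 on the opposite strand, whose own level was 66.7 CPM in sample 2 and 68.9 in sample 1. Reads of the 2 genes in that stretch may not be told apart, so the DBP level is uncertain. UTS2, which overlaps 10.7% of PER3 on the opposite strand, had no count in either sample. Of the 50-base stretches in the transcripts of each clock gene, at least 98.7% occur in no other gene's transcript, each read in its own direction. This search did not cover overlap on the opposite strand, such as that of DBP and SPHK2.

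**Figure D1:**
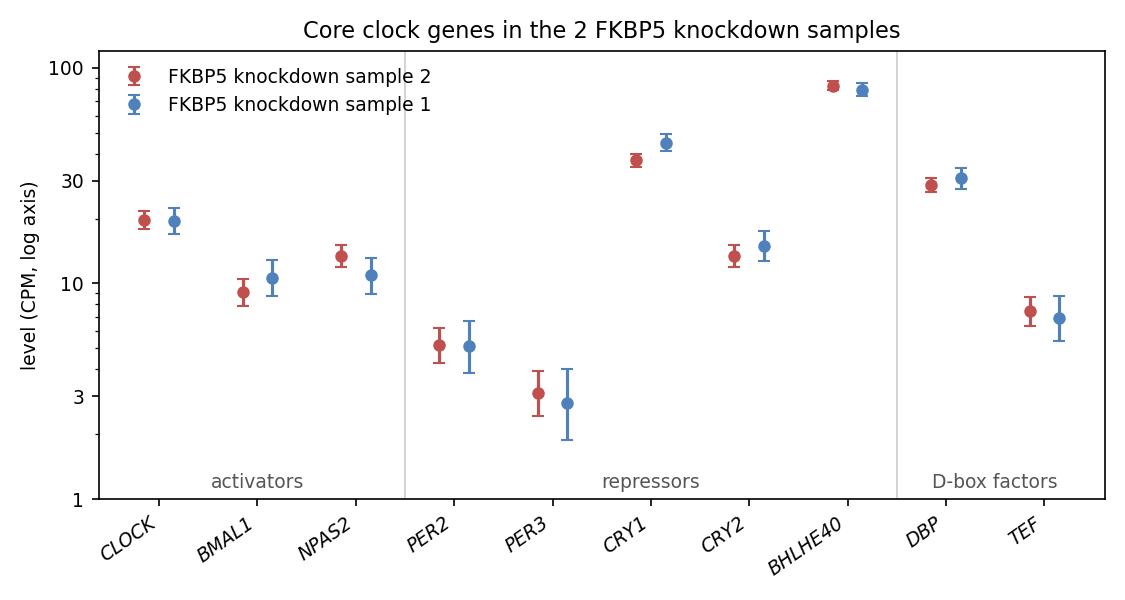
Level of each of the 10 clock genes in FKBP5 knockdown sample 2 (red) and sample 1 (blue), in CPM on a log axis, with 95% exact Poisson intervals as bars. BHLHE40 is highest, at 82.6 and 79.0 CPM, and PER3 lowest, at 3.11 and 2.80 CPM, and CRY1 is the gene whose intervals do not overlap.

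To compare genes with each other, levels were divided by length, taken as all annotated exons of a gene merged. Per kilobase, the mean over the samples was 21.1 ± 0.656 CPM for BHLHE40 (SD, n = 2, as for the others), 8.12 ± 1.09 for CRY1, 4.54 ± 0.227 for DBP and 2.29 ± 0.169 for CRY2. CLOCK had 1.67 ± 0.00390, TEF 1.53 ± 0.0779, BMAL1 1.47 ± 0.157 and NPAS2 0.973 ± 0.142 CPM per kilobase. PER2 and PER3 closed the order with 0.747 ± 0.00642 and 0.365 ± 0.0276. BHLHE40 was thus 57.8 times as high as PER3 per kilobase. The median of the 15436 genes tested and annotated was 4.75 CPM per kilobase; BHLHE40 and CRY1 lay above it and the other 8 below it.

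Of the 9 pairs of neighbours in this order, 5 lay apart, which means that their intervals over both samples did not overlap. These were BHLHE40 and CRY1, CRY1 and DBP, DBP and CRY2, CRY2 and CLOCK, and PER2 and PER3. The gap between CRY2 and CLOCK was narrow, with bounds of 1.93 and 1.91 CPM per kilobase. From CLOCK through TEF, BMAL1 and NPAS2 down to PER2, each gene overlapped its neighbour, so no step between neighbours among them was resolved. The order also rests on the length chosen. With the longest protein-coding transcript, DBP (13.3 CPM per kilobase) stood above CRY1 (12.6), and BMAL1 (3.53) and NPAS2 (3.03) stood above CLOCK (1.90), because their merged exons are much longer than that transcript (6544 against 2229 bases for DBP). BHLHE40 at the top and PER2 and PER3 at the bottom kept their places with every length used.

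**Figure D2:**
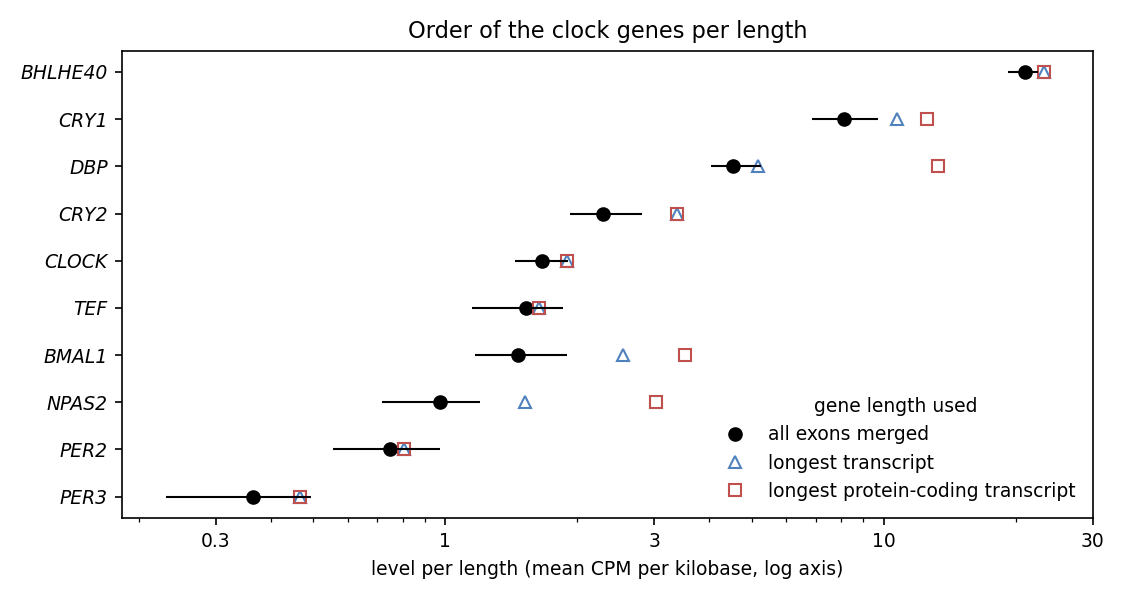
Mean level per kilobase of the 10 clock genes on a log axis, with gene length taken as merged exons (black points), the longest transcript (blue triangles) or the longest protein-coding transcript (red squares). Black lines span the 95% exact Poisson intervals of both samples for merged exons; BHLHE40 (21.1 CPM per kilobase) and PER3 (0.365) mark the ends, and DBP, BMAL1 and NPAS2 move most with the length used.

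The balance of paralogs was compared in 4 pairs, as a ratio of levels per kilobase within each sample, with exact binomial intervals of the counts. CRY1 stood at 3.39 times the level of CRY2 in sample 2 (95% interval 2.96 to 3.88) and 3.69 times in sample 1 (3.07 to 4.45). PER2 stood at 1.96 times the level of PER3 in sample 2 (1.44 to 2.68) and 2.15 times in sample 1 (1.34 to 3.51). In both pairs every interval lay above 1, and this held with each of the 3 lengths. DBP stood at 2.77 times the level of TEF in sample 2 (2.33 to 3.31) and 3.19 times in sample 1 (2.46 to 4.18), and at 7.57 and 8.73 times with the longest protein-coding transcript. CLOCK stood at 1.55 times the level of NPAS2 in sample 2 (1.34 to 1.81) and 1.91 times in sample 1 (1.51 to 2.42), but with the longest protein-coding transcript the ratios were 0.569 and 0.699, so the direction of this pair depended on the length.

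Of these genes CRY1 alone passed the test of a difference between the 2 samples. A 2-sided exact binomial test compared the counts of the libraries, not of conditions, and includes no variation between cultures. At an adjusted p under 0.05 (Benjamini-Hochberg over the 15530 genes whose mean reached 1 CPM) it called 1 of the 10 clock genes, a share near the 8.71% of all genes tested. CRY1 was lower in sample 2, a direction called in 4.42% of all genes, while 4.29% were called higher and no clock gene was. The ratio of sample 2 over sample 1 was 0.827 for CRY1 (95% interval 0.737 to 0.928, adjusted p = 0.0203 by the exact binomial test). Tested without the minimum level, over 41325 genes, the adjusted p of CRY1 by the same exact test was 0.0535, and the call was lost.

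The other 9 clock genes did not pass, with intervals that held a ratio of 1. NPAS2 had the highest ratio, 1.23 (0.988 to 1.54, adjusted p = 0.276 by the exact binomial test), and BMAL1, after CRY1, the lowest, 0.859 (0.677 to 1.09, adjusted p = 0.540 by the exact test). The narrowest interval was that of BHLHE40, 1.05 (0.962 to 1.14), and the ratio for CLOCK was 1.003 (0.847 to 1.19). PER3, at 1.11, could have differed by as much as 1.78 times at this depth, and PER2, at 1.01, by 1.43 times. CRY2 had a ratio of 0.901 (0.739 to 1.101), DBP 0.932 (0.813 to 1.07) and TEF 1.07 (0.810 to 1.44). In all, 6 genes were higher and 4 lower in sample 2, and the median log2 ratio of CPM + 1 was 0.01, as it was over all genes tested. Among all genes at 10 to 100 CPM, the range that holds CRY1 (-0.27) and NPAS2 (0.28), the log2 ratio had an SD of 0.16. Among all genes tested 667 were higher and 686 lower in sample 2, and with CPM scaled to the column totals 569 were higher and 885 lower.

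**Figure D3:**
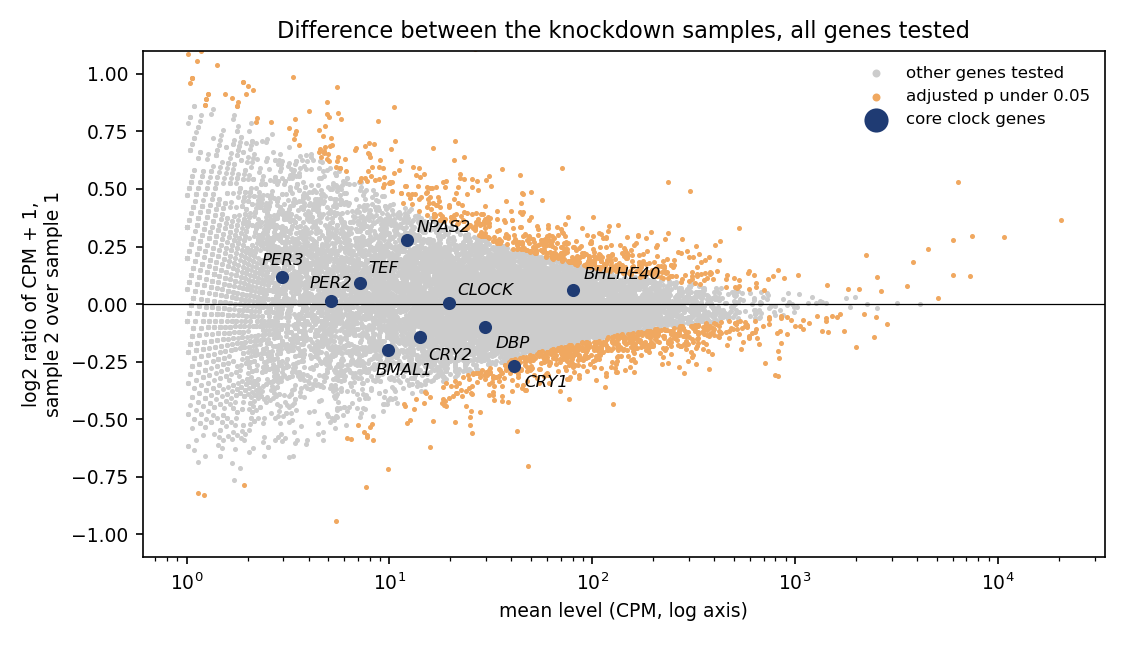
Log2 ratio of CPM + 1, sample 2 over sample 1, against the mean level in CPM (log axis) for the 15530 genes tested; orange genes have an adjusted p under 0.05 by the exact binomial test, blue points are the clock genes, and 5 genes lie beyond the vertical axis. CRY1, at -0.27, lies at the edge of the called genes below 0, and the other 9 clock genes were not called.

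The remaining clock factors were taken from lists of 11 genes beside the 10. Among the activators, BMAL2, a paralog of BMAL1, had 25.9 CPM in sample 2 and 26.4 in sample 1. Per kilobase it stood at 2.73 times the level of BMAL1 in sample 2 (2.32 to 3.23) and 2.40 times in sample 1 (1.92 to 3.02), but with the longest protein-coding transcript at 1.17 (0.991 to 1.38) and 1.02 times (0.817 to 1.29), whose intervals hold 1. ARNT, the general partner of bHLH-PAS proteins outside the clock, had 79.5 CPM in sample 2 and 70.4 in sample 1, and stood per kilobase at 9.01 times BMAL1 (7.78 to 10.5) and 6.85 times (5.60 to 8.45), or 4.98 and 3.79 times with the longest protein-coding transcript. HIF1A, the hypoxia factor that pairs with ARNT, was the highest of the 12 bHLH-PAS genes outside the clock, with 144 CPM in sample 2 and 153 in sample 1.

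PER1, a Period gene that glucocorticoids and other signals induce rapidly, was far above its paralogs, with 99.9 CPM in sample 2 and 107 in sample 1. Per kilobase it stood at 19.0 times the level of PER2 in sample 2 (15.7 to 23.1) and 20.5 times in sample 1 (15.6 to 27.5), and at 37.1 and 44.1 times that of PER3. BHLHE41, the paralog of BHLHE40, had 15.2 CPM in sample 2 and 16.1 in sample 1. Per kilobase BHLHE40 was at 5.59 times its level in sample 2 (4.97 to 6.31) and 5.05 times in sample 1 (4.27 to 6.003). CIPC, which inhibits CLOCK, had 28.1 CPM in sample 2 and 34.3 in sample 1, and CIART, another repressor of the loop, had 2.56 and 2.12 CPM.

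In the receptor loop that acts on BMAL1, the REV-ERB genes were higher than RORA and RORB per kilobase. NR1D2 (REV-ERB beta) had a mean of 8.19 and NR1D1 (REV-ERB alpha) of 4.19 CPM per kilobase, against 0.892 for RORB and 0.602 for RORA. Of the D-box regulators, NFIL3, a repressor at D-boxes, had 12.6 CPM in sample 2 and 15.2 in sample 1. Per kilobase it was at 1.38 times the level of DBP (1.20 to 1.60) and 1.55 times (1.28 to 1.89), but with the longest protein-coding transcript the ratios were 0.471 and 0.530. HLF, the third PAR bZIP activator beside DBP and TEF, had 2.24 CPM in sample 2 and 2.22 in sample 1.

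All 11 of these factors had a mean of at least 1 CPM. Of the 11, 2 passed the exact binomial test between the libraries, against 8.71% of all genes tested. At an unadjusted p under 0.05 there were also 2 of the 11, against 21.2% of all genes tested. NR1D2 was higher in sample 2, with a ratio of 1.18 (1.06 to 1.32, adjusted p = 0.0343 by the exact test), and CIPC lower, with 0.820 (0.719 to 0.937, adjusted p = 0.0425 by the exact test). Without the minimum of 1 CPM both calls were lost, with adjusted p-values by the exact test of 0.0898 for NR1D2 and 0.111 for CIPC, and with column totals as library sizes that of NR1D2 was lost (0.0515). The list of kinases, ubiquitin ligases and other regulators of PER and CRY held 12 genes, 1 of them annotated as a pseudogene. All 12 had at least 1 CPM, with a median of 10.6 CPM per kilobase against 1.60 for the 10 clock genes. None of the 12 passed the exact binomial test, where 8.71% of all genes passed. At an unadjusted p under 0.05 there were 2 of the 12, against 21.2% of all genes tested. CSNK1E and CSNK1D, casein kinases that phosphorylate PER proteins, led with 264 ± 3.16 and 214 ± 6.27 CPM (SD, n = 2). The 10 chromatin cofactors were led by NONO at 842 ± 9.97 CPM and SFPQ at 530 ± 33.4 CPM, RNA-binding proteins found in PER complexes. SFPQ alone of the 10 passed, against 8.71% of all genes tested. It was lower in sample 2, with a ratio of 0.915 (0.886 to 0.945, adjusted p = 5.14e-06 by the exact test). The log2 ratio of CPM + 1 for SFPQ was -0.13. Among all genes at 100 CPM or more, this log2 ratio had an SD of 0.11. Of these 10 cofactors, 4 had an unadjusted p under 0.05 by that test, against 21.2% of all genes tested. None of the 8 clock output genes passed that exact test, against 8.71% of all genes tested. At an unadjusted p under 0.05 there was 1 of the 8, against the same 21.2% of all genes. TSC22D3 (1209 ± 19.2 CPM) and NAMPT (63.6 ± 1.43 CPM) were highest of the 8.

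**Figure D4:**
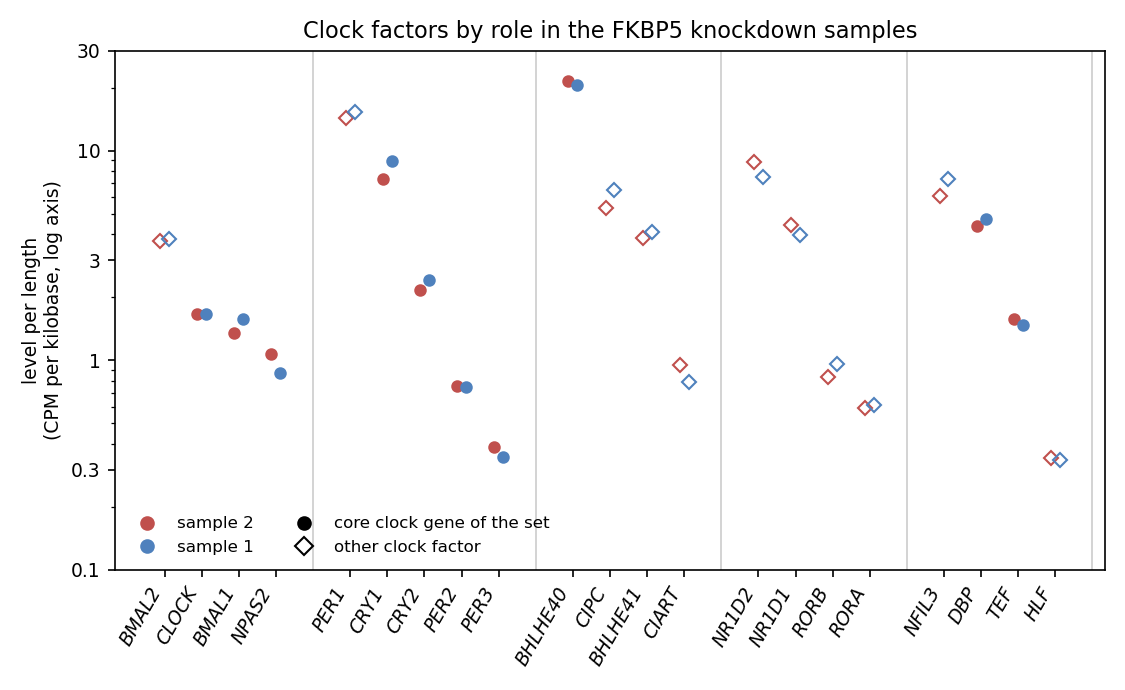
Level per kilobase of merged exons, on a log axis, of the clock factors in 5 role groups (activators, Period and Cryptochrome repressors, other repressors, REV-ERB and ROR receptors, D-box regulators), in sample 2 (red) and sample 1 (blue). Filled circles are the 10 clock genes and open diamonds the other 11 factors; BHLHE40 and PER1 are highest and PER3 and HLF lowest.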

How the data were processed

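The authors deposited whole-number counts per Ensembl gene, without normalization, and CPM per sample. STAR 2.7.7a, edgeR and GRCh38 appear in the submitters' processing notes; what counted the reads, with which strand setting and annotation, is not given in these sources. Within each library the deposited CPM are the counts multiplied by a constant, since 100% of them convert to whole reads (tolerance 1e-06), and the library size behind them exceeds the column total by 2.68% in sample 2 and 3.78% in sample 1. The column names say that something was combined, without saying what.

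The clock genes and lists were chosen with earlier results of these data known. All genes of the 5 lists of clock factors were named, and of every other list the 2 highest in mean CPM; 2 listed genes are not reported here or counted in their lists, and SPHK2 and UTS2 were named for their overlap and KRT7 for its level of 0. Gene lengths and overlaps come from GENCODE 29 and promoters from RefSeq. Intervals are 95% exact Poisson (levels) or Clopper-Pearson (ratios) and cover counting error only. The exact binomial test doubled the smaller tail and compared counts with the share set by the deposited scaling. It was tried on simulated counts with counting error only, which cannot show how it behaves where libraries vary further. With 1 group, edgeR's quasi-likelihood test and DESeq2 could not be run. The biological coefficient of variation by edgeR 4.0.16 (R 4.3.3) was 5.62%, a spread that may be technical. Python 3.11.15, pandas 2.3.3, numpy 2.4.6, scipy 1.17.1 and matplotlib 3.10.9 were used. Alternatives were other scalings, level minimums, pseudocounts and gene lengths, and leaving out each sample.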

Additional observations from a re-analysis of the deposited data

How the results depend on the processing

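The count of clock genes that differed between the samples was 1 with column totals, TMM factors and a minimum of 5 CPM, and 0 without a minimum, where 41325 genes shared the adjustment; the adjusted p of CRY1 by the exact binomial test ranged over these settings and the main one between 0.0120 and 0.0535. Gene length moved the ratios per kilobase most. With the longest transcript, CLOCK over NPAS2 was 1.26, CRY1 over CRY2 3.17 and PER2 over PER3 1.73, as means of both samples. With the longest protein-coding transcript, a setting added after the data were seen, CLOCK over NPAS2 was 0.634, PER2 over PER3 1.73 and DBP over TEF 8.15. Leaving out each sample in turn, CLOCK over NPAS2 ranged from 1.55 to 1.91 and DBP over TEF from 2.77 to 3.19. In either sample by itself 6 neighbour pairs lay apart, against 5 over both samples. The interval of a single sample is never wider than the range over both, so the higher count does not show a firmer order. Over both samples, 4 pairs lay apart with the longest transcript and 4 with the longest protein-coding transcript. Without sample 2, 2 genes (BMAL1 and TEF) changed places. With column totals or TMM factors the levels of CLOCK, PER2 and BHLHE40 moved by more than their SD, to at most 20.3, 5.33 and 83.7 CPM. PER3 falls under a minimum of 5 CPM. No paired analysis was possible because all samples belong to 1 group. Depth limits PER3, PER2 and TEF most, and the difference between the samples cannot be repeated without either one.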
